A study of Homo sapiens with 4 samples.

Results

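The subject here is the pair of gene families that encode the building blocks of microtubules, the alpha and beta tubulin isotypes. The members were the rows of the deposited count table named TUBA1A, TUBA1B, TUBA1C, TUBA4A, TUBB, TUBB2A, TUBB2B, TUBB3, TUBB4B or TUBB6, which gave 10 genes of 58735. All 10 were above the filter on weakly read genes, a mean of at least 1 CPM (reads scaled to library size, with sizes adjusted by TMM), which left 14578 genes. The samples came from MDA-MB-231, a human line established from a triple-negative breast cancer and transduced with TetOn-H2BeGFP, a histone reporter that doxycycline switches on. All cells, those of the control included, received 5 μg/ml doxycycline for 3 days, carried the Claret and Violet labels as well, and were chased for 12 days, during which each division dilutes a label. The top 1% of cells by retained Claret, eGFP or Violet were sorted as 3 slow-cycling populations, and the Bulk cells were sorted with no gate on fluorescence. Each population gave 1 library, so no difference below has a replicate check, and nothing in the labels ties the libraries to separate cultures.

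Groups follow the sample titles, which the names of the deposited count and FPKM columns match. In every sample the treatment field names another sort: it calls the Bulk library Claret, the Claret library eGFP, the eGFP library Violet, and the Violet library un-gated. Summed counts were 15508179 to 16976909 per library, and 3 reads, the most that a count of 0 allows, equal 0.177 to 0.190 CPM. Of the reads, 4.18% in Bulk and 5.06% to 5.48% in the slow-cycling libraries came from mitochondrial genes. VIM, CD44, SPARC and FN1, which mark this mesenchymal-like line, were well read in every library, while CDH2, a mesenchymal cadherin gene on the same marker list, was at 0 to 2 reads. The epithelial cadherin gene CDH1 had 0 to 3 reads, the hormone receptor genes ESR1 and PGR had 3 to 7 and 0 reads, and the leukocyte gene PTPRC had 0 to 2 reads. EPCAM had 28 to 61 reads and the endothelial gene PECAM1 had 54 to 87, while ERBB2, listed as low, had 1415 to 1542.

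Alpha and beta tubulin proteins pair into dimers that polymerise into microtubules, which build the mitotic spindle, carry cargo and shape the cell. The isotypes share a conserved body and differ mostly in an acidic tail at the end of the protein, where many modifying enzymes act. TUBA1B, TUBA1C, TUBB and TUBB4B are the isotypes of most dividing cells, while TUBA1A, TUBB2A, TUBB2B and TUBB3 are best known from neurons, and TUBB3 is also studied in carcinomas treated with taxanes. Cells adjust tubulin synthesis through autoregulation: the factor TTC5 reads the first residues of tubulin as it leaves the ribosome, and the mRNA is degraded when free dimers are in excess.

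The beginning of the coding sequence carries this signal, and it also shows how alike the alpha genes are at the RNA level. The first 30 coding bases (GENCODE 29 transcripts, GRCh38), with the first 4 codons in capitals, are shown because autoregulation reads this end.
TUBA1: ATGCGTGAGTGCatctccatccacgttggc
TUBA4A: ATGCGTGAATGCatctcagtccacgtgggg
TUBB: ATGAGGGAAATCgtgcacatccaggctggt
TUBB4B: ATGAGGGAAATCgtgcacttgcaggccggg
TUBB6: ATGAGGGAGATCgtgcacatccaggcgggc
TUBA1A, TUBA1B and TUBA1C, given as TUBA1, share the whole of this stretch. Over the full coding sequence TUBA1A was 97.2% identical to TUBA1B and 95.9% identical to TUBA1C, and TUBB2A was 98.1% identical to TUBB2B. TUBA4A was 84.4% identical to TUBA1A, and TUBB was 84.4% identical to TUBB4B, so those genes are easier to tell apart by reads.

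The summed tubulin RNA was lower in each slow-cycling library than in Bulk. The 10 members together held 0.499% of all reads in Bulk, 0.193% for Claret, 0.191% for eGFP and 0.182% for Violet. The 4 alpha members held 24792, 11230, 10388 and 9585 reads in Bulk, Claret, eGFP and Violet, and as CPM their sum was 2.38, 2.40 and 2.59 times lower than in Bulk. For the 6 beta members the reads were 55263, 21569, 19919 and 18683, and the sum was 2.76, 2.79 and 2.97 times lower. On the log2 scale of CPM the alpha sum differed from Bulk by -1.25 (95% interval -1.28 to -1.22) for Claret, -1.27 (-1.30 to -1.23) for eGFP and -1.37 (-1.41 to -1.34) for Violet. The beta sum differed by -1.46 (-1.49 to -1.44), -1.48 (-1.51 to -1.46) and -1.57 (-1.59 to -1.54). The beta intervals lay below the alpha intervals in every comparison. The intervals, of read ratios, are exact (Clopper-Pearson) and cover counting error only, since each group holds 1 library. The reads also carry no molecular identifiers, so the intervals may be too narrow even for that error. In sorted populations measured in bulk, fewer cells that express a gene and less of its RNA per cell cannot be told apart.

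By the deposited gene lengths, the beta pool was the larger one throughout. The authors' FPKM, which divides reads by gene length as well as by depth, summed to 408 for the alpha members and 1225 for the beta members in Bulk. In Claret, eGFP and Violet the alpha sums were 172, 170 and 156 FPKM, and the beta sums were 436, 426 and 397 FPKM. Beta exceeded alpha 3.00 times in Bulk, against 2.54, 2.51 and 2.54 times in Claret, eGFP and Violet. This order of the pools and this change both depend on the length used. Neither holds when reads are divided by the length of the free stretches described below, of which TUBA1B has few.

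**Figure D1:**
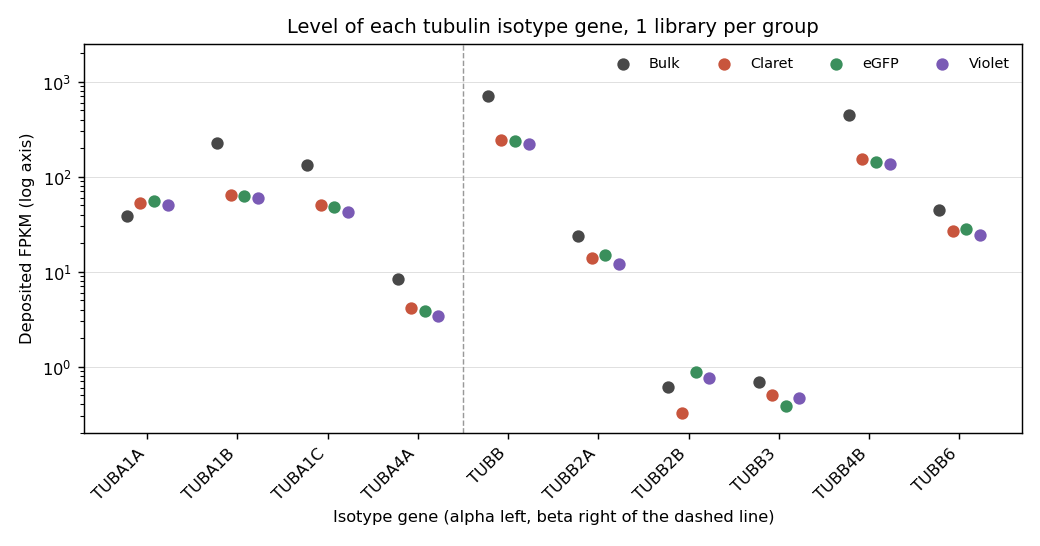
Deposited FPKM (log axis) of each isotype gene in the Bulk, Claret, eGFP and Violet libraries, 1 point per library. TUBB spans 224 to 712 FPKM and stands above every other member, TUBA1A is the well-read gene whose Bulk point is the lowest of its 4, and TUBB2B and TUBB3 lie below 1 FPKM.

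Among the alpha genes, TUBA1B (chr12:49127782-49131397, minus strand, ENSG00000123416), the widely expressed alpha isotype of dividing cells, was the highest in Bulk. It had 12697 reads in Bulk, against 3862 for Claret, 3612 for eGFP and 3445 for Violet, which the authors' FPKM gave as 229, 63.7, 63.2 and 60.04. The 3 slow-cycling values lay close together, far under the Bulk value. The log2 ratio of CPM to Bulk was -1.82 (-1.88 to -1.77) for Claret, -1.82 (-1.88 to -1.77) for eGFP and -1.88 (-1.94 to -1.83) for Violet, the lowest ratio of all 10 members in each comparison. Among protein-coding genes ranked by FPKM, TUBA1B was number 98 in Bulk and number 517 or 518 in the others.

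TUBA1C (chr12:49188736-49274603, plus strand, ENSG00000167553), a second alpha isotype of proliferating cells, was lower in the slow-cycling libraries as well. Its reads were 9502 in Bulk, against 3982 for Claret, 3519 for eGFP and 3152 for Violet, or 132, 50.7, 47.6 and 42.4 FPKM. The ratios were -1.36 (-1.41 to -1.31), -1.44 (-1.4999 to -1.39) and -1.60 (-1.65 to -1.54). Unlike TUBA1B, this gene also differed by more than counting error among the slow-cycling libraries, with Claret above Violet by 0.23 (0.17 to 0.30) and eGFP between them.

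TUBA1A (chr12:49184796-49189324, minus strand, ENSG00000167552), an alpha isotype best known from developing neurons, went the other way. It had 2067 reads in Bulk, against 3100 for Claret, 3003 for eGFP and 2765 for Violet, or 38.9, 53.4, 54.9 and 50.3 FPKM. Bulk was the lowest of the 4 values. The log2 ratio of CPM was 0.48 (0.40 to 0.56) for Claret, 0.53 (0.45 to 0.61) for eGFP and 0.42 (0.33 to 0.50) for Violet, which are folds of 1.39, 1.44 and 1.33. TUBA1A was the single member above Bulk in all 3 comparisons, and its intervals did not reach those of TUBA1B or TUBA1C in any of them. None of these ratios reached 2-fold. By FPKM it was number 1090 among protein-coding genes in Bulk and number 614 to 640 in the others.

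TUBA4A (chr2:219249711-219278170, minus strand, ENSG00000127824), whose protein is made without the terminal tyrosine of the other alpha isotypes here, was the weakest alpha member. It had 526 reads in Bulk, against 286 for Claret, 254 for eGFP and 223 for Violet, or 8.297, 4.13, 3.897 and 3.41 FPKM. Its ratios lay around the 2-fold limit, at -0.98 (-1.20 to -0.77), -1.06 (-1.28 to -0.84) and -1.23 (-1.47 to -1.01). Every slow-cycling library was below Bulk, with the largest difference in Violet.

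The beta genes were led by TUBB (chr6:30720201-30725426, plus strand, ENSG00000196230), the class I beta tubulin found in most cell types. It had 37158 reads in Bulk, against 13746 for Claret, 12726 for eGFP and 12076 for Violet, or 712, 241, 237 and 224 FPKM. Its log2 ratio of CPM was -1.54 (-1.57 to -1.51), -1.56 (-1.59 to -1.53) and -1.63 (-1.65 to -1.60). TUBB stayed the highest member by FPKM in every library, at rank 27 of the protein-coding genes in Bulk and 97 to 105 in the others.

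TUBB4B (chr9:137241213-137243707, plus strand, ENSG00000188229), the class IVb isotype, also common in cycling and ciliated cells, was second. It had 14552, 5495, 4858 and 4591 reads in Bulk, Claret, eGFP and Violet, or 444, 153, 144 and 135 FPKM. The ratios were -1.51 (-1.56 to -1.47), -1.59 (-1.64 to -1.55) and -1.67 (-1.72 to -1.62), close to those of TUBB. The FPKM of TUBB over that of TUBB4B was 1.60 in Bulk, against 1.57 (Claret), 1.65 (eGFP) and 1.65 (Violet), so this pair kept nearly the same proportion at very different levels.

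TUBB6 (chr18:12307669-12344320, plus strand, ENSG00000176014), the class V isotype, was less far below Bulk. Its reads were 2847, 1867, 1864 and 1619 in Bulk, Claret, eGFP and Violet, or 44.5, 26.7, 28.3 and 24.5 FPKM. The log2 ratio of CPM was -0.71 (-0.80 to -0.63) for Claret, -0.62 (-0.71 to -0.54) for eGFP and -0.82 (-0.91 to -0.73) for Violet. These intervals lay wholly above those of TUBB and TUBB4B in the same comparison.

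TUBB2A (chr6:3153669-3157526, minus strand, ENSG00000137267), a class II isotype, had 637, 411, 413 and 337 reads in Bulk, Claret, eGFP and Violet, or 23.7, 14.02, 14.97 and 12.2 FPKM. Its ratios were -0.74 (-0.92 to -0.56), -0.63 (-0.82 to -0.45) and -0.92 (-1.12 to -0.73), similar to those of TUBB6. Its close relative TUBB2B (chr6:3224261-3231730, minus strand, ENSG00000137285) had only 21, 12, 31 and 27 reads, or 0.616, 0.322, 0.884 and 0.767 FPKM. Against Bulk the TUBB2B ratio was -0.81 (-2.07 to 0.18) for Claret, 0.51 (-0.29 to 1.42) for eGFP and 0.33 (-0.52 to 1.25) for Violet, and no difference was detectable at this depth. The neuronal class III gene TUBB3 (chr16:89921392-89938761, plus strand, ENSG00000258947) had 48, 38, 27 and 33 reads, or 0.697, 0.505, 0.381 and 0.464 FPKM. Its ratios were -0.42 (-1.10 to 0.20), -0.80 (-1.58 to -0.13) and -0.52 (-1.23 to 0.13), so the eGFP interval alone stayed below 0.

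**Figure D2:**
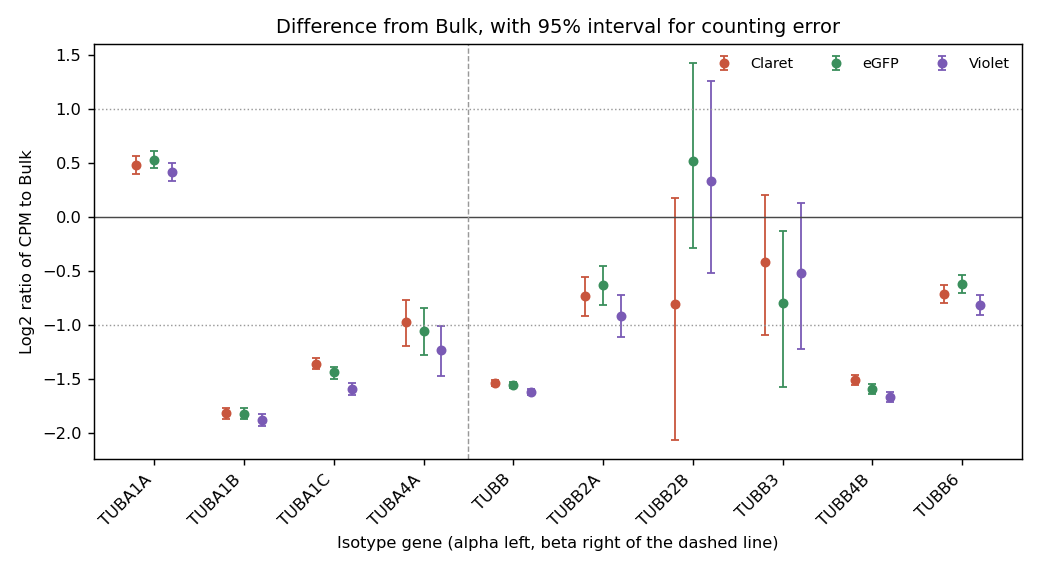
Log2 ratio of CPM to Bulk for each member in the Claret, eGFP and Violet libraries, where bars are 95% exact intervals for counting error and dotted lines mark 2-fold. TUBA1B, TUBA1C, TUBB and TUBB4B lie below the lower line in all 3 libraries, and TUBA1A lies above 0.

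Counted over the members, 4 of 10 were lower than Bulk by at least 2-fold in Claret (TUBA1B, TUBA1C, TUBB and TUBB4B), where 6.69% of all genes kept were. In eGFP and in Violet 5 of 10 were, TUBA4A being the addition, against 7.63% and 7.02% of all genes. No member was higher by 2-fold in any slow-cycling library, whereas 11.3%, 12.0% and 11.4% of all genes were. The median log2 ratio of the members was -0.89 for Claret, -0.93 for eGFP and -1.08 for Violet, beside medians of -0.0066, -0.0098 and 0.0011 over all genes kept. At a limit of 1.5-fold, 8, 8 and 7 members were lower, beside 17.3%, 18.5% and 17.5% of all genes. The 3 comparisons share the 1 Bulk library, so they are not separate evidence.

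The members therefore did not differ from Bulk by one common factor, and the isotype mix differed too. TUBA1A made up 9.53% of the summed alpha FPKM in Bulk, against 31.1%, 32.4% and 32.2% for Claret, eGFP and Violet. TUBA1B made up 56.1% in Bulk and 37.05%, 37.3% and 38.4% in the others. The share of TUBA1C was 32.4% in Bulk and 29.5%, 28.03% and 27.1% in the others, a direction that turned under another length given below, and that of TUBA4A was 2.03% to 2.40% in all 4 libraries. For each unit of TUBA1B FPKM there was 0.170 of TUBA1A in Bulk, against 0.839, 0.869 and 0.839 for Claret, eGFP and Violet. Per length, TUBA1A thus ranked below TUBA1C in Bulk and above it in each slow-cycling library. The levels of TUBA1A and TUBA1C were near each other there, 53.4 and 50.7 FPKM in Claret, and without replicates their order has no spread to be set against.

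The same shares taken from reads have counting intervals and do not depend on library scaling, although they are not per length. TUBA1A held 8.34% (7.996% to 8.69%) of alpha reads in Bulk and 27.6% (26.8% to 28.4%), 28.9% (28.04% to 29.8%) and 28.8% (27.9% to 29.8%) in Claret, eGFP and Violet. The Bulk interval was far from the others, and those of the slow-cycling libraries overlapped. TUBA1C, the longer gene, held 38.3% of alpha reads in Bulk, against 35.5% for Claret, 33.9% for eGFP and 32.9% for Violet, more than TUBA1A in every library.

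The beta pool kept its makeup more closely. TUBB made up 58.1% of the summed beta FPKM in Bulk, against 55.3%, 55.7% and 56.4% for Claret, eGFP and Violet. TUBB4B followed at 36.2% in Bulk and 35.2%, 33.8% and 34.1% in the others. The share of TUBB6 was 3.63% in Bulk and 6.13%, 6.66% and 6.17% in the others, and the share of TUBB2A was 1.94% against 3.22%, 3.52% and 3.06%. TUBB2B and TUBB3 each stayed at or under 0.208% of the beta pool by the deposited gene lengths.

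**Figure D3:**
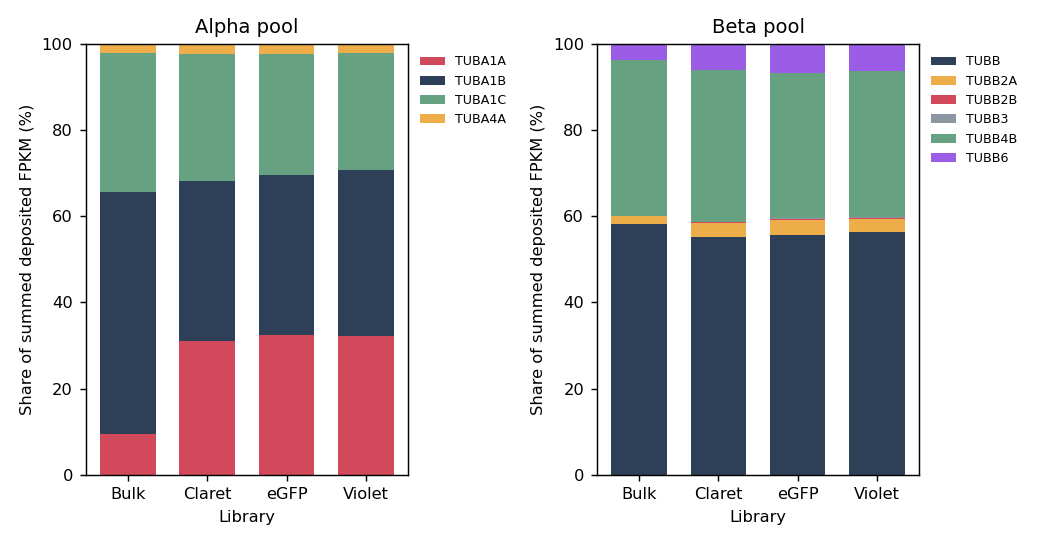
Share of each isotype in the summed deposited FPKM of the alpha pool (left) and beta pool (right), in percent, 1 bar per library. TUBA1A takes 9.53% of the alpha bar in Bulk and 31.1% to 32.4% in the slow-cycling bars, while TUBB and TUBB4B fill most of every beta bar.

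The slow-cycling libraries were much more alike to each other than to Bulk. Over the 8 members other than TUBB2B and TUBB3, the 24 log2 ratios between pairs of these libraries ran from -0.10 to 0.28. Some of their intervals excluded 0. Such intervals narrow as reads grow, so this does not set these well-read genes apart from others. Violet was the lowest for most members. Of the members, 9 of 10 were higher in Claret than in Violet, beside 7578 of the 14578 genes kept. Likewise 9 of 10 were higher in eGFP than in Violet, beside 7481 of the 14578. The summed alpha level was 0.13 (0.087 to 0.17) higher in Claret than in Violet and 0.11 (0.069 to 0.15) higher in eGFP than in Violet on the log2 scale. The summed beta level was 0.10 (0.076 to 0.13) and 0.085 (0.057 to 0.11) higher. Claret and eGFP differed by 0.017 (-0.022 to 0.056) for alpha and 0.019 (-0.0085 to 0.047) for beta. The single member past 2-fold among these libraries was the weakly read TUBB2B, lower in Claret than in eGFP by a ratio of -1.32 (-2.56 to -0.46) and than in Violet by -1.14 (-2.39 to -0.24), where 0.652% and 0.707% of all genes were lower. No member was higher by 2-fold in Claret than in eGFP or Violet, beside 0.494% and 0.343% of all genes. None differed by 2-fold between eGFP and Violet, beside 0.377% of genes higher in eGFP and 0.905% lower.

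How far reads can be assigned to one isotype differed between the members. Of the 100-base stretches of 1 principal transcript per gene, 37.2% in TUBA1B, 18.3% in TUBA1A and 11.5% in TUBA1C also occurred in a transcript of another gene. The share was 56.4% in TUBB2A and 46.2% in TUBB2B, but 5.10% in TUBB, 2.86% in TUBB4B, 1.84% in TUBA4A and 0% in TUBB6. In TUBB3 it was 89.0%, because AC092143.1, an annotated gene on the same strand, contains 95.8% of its coding bases. AC092143.1 itself was listed with 0 reads in every library. How the counting treated reads with several matches or in overlapping genes, and whether it used strand, is not given in the sources used here. The TUBB3 level is therefore uncertain, and any share of it in the beta pool as well.

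The summed reads of close copies do not depend on how counted reads were split among them. TUBA1A, TUBA1B and TUBA1C together had 24266, 10944, 10134 and 9362 reads in Bulk, Claret, eGFP and Violet, and their ratios were -1.25 (-1.29 to -1.22), -1.27 (-1.30 to -1.24) and -1.38 (-1.41 to -1.34). TUBB2A and TUBB2B together had 658, 423, 444 and 364 reads and ratios of -0.74 (-0.92 to -0.57), -0.58 (-0.76 to -0.40) and -0.85 (-1.05 to -0.67). These sums stayed below Bulk in all 3 libraries.

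Several members also overlap genes on the opposite strand. TUBA1A and TUBA1C share 490 exon bases, 14.3% of the exon bases of TUBA1A and 10.6% of those of TUBA1C. TUBB6 shares 20.3% of its exon bases with AFG3L2 (924 to 1408 reads), TUBA4A shares 15.4% with STK16 (478 to 811 reads) and TUBB2B shares 7.93% with PSMG4 (223 to 265 reads). PSMG4 had more reads than TUBB2B in every library, and STK16 had more reads than TUBA4A in the slow-cycling libraries. TUBA1B overlaps the antisense gene AC011603.2 over 36.6% of its exon bases, and that gene had 1 or 2 reads.

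**Figure D4:**
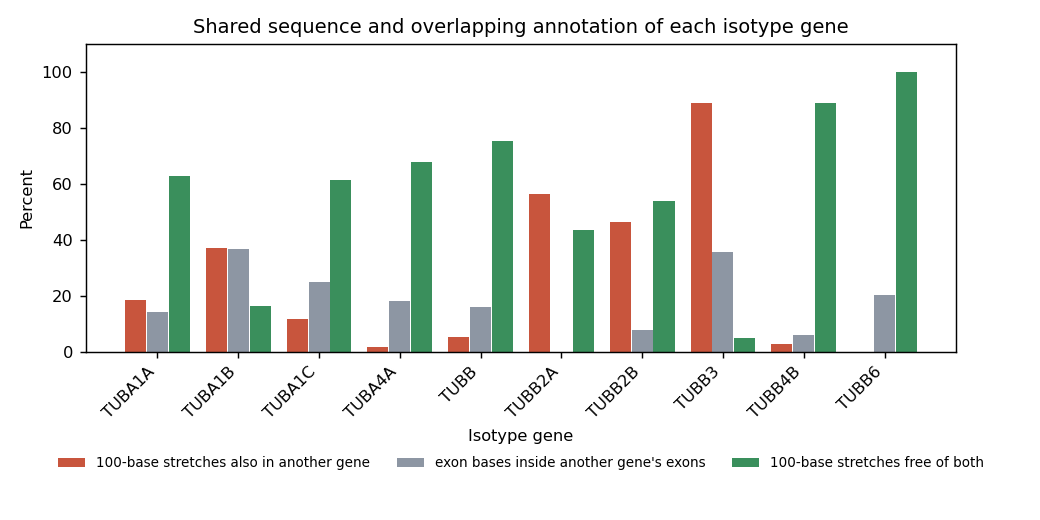
For each member, in percent: 100-base stretches of its principal transcript found in another gene, exon bases of all its transcripts inside the exons of another gene, and stretches free of both. TUBB6 is free along its whole principal transcript (its overlap lies in other transcripts), TUBB3 is free over 4.85% and TUBA1B over 16.4%.

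When the levels were taken over the free stretches alone, as if only reads there had been counted, the TUBA1A share of the alpha pool was 3.11% in Bulk, against 13.2% (Claret), 13.7% (eGFP) and 13.4% (Violet). The TUBA1B share was then 87.1% in Bulk and 74.9%, 75.1% and 75.96% in the others. The TUBA1C difference turned: its share over the free stretches was 9.17% in Bulk and 10.9%, 10.3% and 9.78% in the others, so no direction holds for it under both lengths. TUBB3 took 1.80% of the beta pool in Bulk and 3.56%, 2.76% and 3.58% in the others over its few free stretches, far above its share by deposited length. The size of a share thus depends on the length used, while the ratio of one gene between libraries does not. The TUBA1A share was higher than in Bulk with either length, but this is no separate check. TUBA1A had more reads than in Bulk and the other alpha members had fewer, so any fixed lengths give that direction.

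Upstream sequence was read from RefSeq (GRCh38.p14), where all 10 members were matched with 15 start sites, for short motifs in the 250 bases before each start on both strands. The motifs were CCAAT (the box bound by NF-Y, in 32.0% of 35116 promoters), TTTGAA (the CHR element of many mitotic genes, in 13.3%), TATATA (letters of a core promoter box, in 3.73%), TGANTCA (the AP-1 site, in 6.57%) and TGACGTCA (the CRE site, in 1.65%). The stretches upstream of every annotated exon are shown for the 3 members with the highest Bulk levels, 2 of which have a match, with matches in capitals.
TUBB4B: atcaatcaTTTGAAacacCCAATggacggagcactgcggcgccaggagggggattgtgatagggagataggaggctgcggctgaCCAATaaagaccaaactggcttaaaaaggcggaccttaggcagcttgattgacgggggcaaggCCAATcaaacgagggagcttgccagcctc
TUBB: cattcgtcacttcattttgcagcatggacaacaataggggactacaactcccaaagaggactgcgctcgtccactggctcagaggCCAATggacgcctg
TUBA1B: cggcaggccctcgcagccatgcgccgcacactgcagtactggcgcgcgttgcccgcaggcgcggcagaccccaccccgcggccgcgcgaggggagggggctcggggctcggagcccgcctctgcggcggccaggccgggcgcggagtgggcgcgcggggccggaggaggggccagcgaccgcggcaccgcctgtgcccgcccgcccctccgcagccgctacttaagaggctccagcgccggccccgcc
They lie at chr9:137241037-137241212 (plus strand), chr6:30720102-30720200 (plus strand, the first of 2 starts) and chr12:49131398-49131645 (minus strand). TUBB4B held CCAAT at 232, 166 and 103 bases before its start, TTTGAA at 242 and TATATA at 29. TUBB held 1 CCAAT, 165 bases before its first start, and none of the motifs before the second. TUBA1B and TUBA4A held none of the 5 motifs in this window. TUBA1A held CCAAT at 125 and 88 bases and TATATA at 30, but no TTTGAA. One start of TUBA1C held CCAAT at 160, TTTGAA at 178 and 170, and TATATA at 33. Another held CCAAT at 104 and TTTGAA at 173, and a further start, with an overlapping window, held CCAAT at 197. CCAAT also occurred before TUBB2B (178 bases), 1 start of TUBB3 (79 bases) and 1 start of TUBB6 (68 bases). The AP-1 letters occurred at 1 start of TUBB3, 21 bases before it, and at no other start of a member, and the CRE letters occurred at TUBB2A alone, 60 bases before its start. The genes lower by 2-fold and TUBA1A were not separated by CCAAT or TATATA. The CHR element did not separate them either: like TUBA1A, the lower genes TUBB, TUBA1B and TUBA4A held none. A match is a description of letters, not of binding.

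The shares of all genes past 2-fold given above, 6.69%, 7.63% and 7.02% lower and 11.3%, 12.0% and 11.4% higher in Claret, eGFP and Violet, are the background for the counts of related genes that follow. Tubulin leaves the ribosome to prefoldin and the CCT chaperonin, whose ring closes around it. Of 14 chaperonin and prefoldin genes, 1, 1 and 3 were lower by 2-fold in Claret, eGFP and Violet, and none was higher. The counts in Claret and eGFP are near the background of 6.69% and 7.63%, while the median log2 ratios were -0.71, -0.77 and -0.86. These medians do not describe every prefoldin gene. PFDN2 (0.59, 0.54 and 0.28) and PFDN5 (0.25, 0.25 and 0.15), named after their values were seen, were above Bulk. PFDN1 was above Bulk in Claret only, and the remaining genes of the list were below Bulk in each slow-cycling library. TCP1, the CCT subunit that names the complex, had 6052, 2836, 2508 and 2454 reads in Bulk, Claret, eGFP and Violet, and ratios of -1.20 (-1.26 to -1.14), -1.28 (-1.35 to -1.21) and -1.31 (-1.37 to -1.24). Of the 7 tubulin cofactor genes, which assemble the dimer after folding, 0, 1 and 1 were lower by 2-fold, beside 6.69%, 7.63% and 7.02% of all genes, with medians of -0.00029, -0.011 and -0.15. Counts this small do not set the cofactors apart. The one was TBCD, which works on beta tubulin, at 2822, 1524, 1401 and 1360 reads and ratios of -0.99 (-1.09 to -0.90), -1.02 (-1.11 to -0.93) and -1.06 (-1.15 to -0.96).

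The 4 genes of mRNA autoregulation stayed within 2-fold of Bulk, with medians of -0.21, -0.26 and -0.28. Of all genes, 6.69%, 7.63% and 7.02% were lower by 2-fold and 11.3%, 12.0% and 11.4% higher, so most stayed within it too. This does not set the 4 genes apart. CNOT1, the scaffold of the CCR4-NOT deadenylase, had 5037, 3438, 3309 and 3370 reads and ratios of -0.66 (-0.72 to -0.59), -0.62 (-0.68 to -0.55) and -0.58 (-0.65 to -0.52). TTC5, which recognises the beginning of the tubulin chain, had 473, 448, 403 and 432 reads and ratios of -0.18 (-0.37 to 0.0050), -0.24 (-0.44 to -0.047) and -0.13 (-0.33 to 0.057).

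Of 15 enzymes that modify tubulin, 2, 3 and 2 were higher by 2-fold in Claret, eGFP and Violet, beside 11.3%, 12.0% and 11.4% of all genes. In the other direction 2, 3 and 3 were lower, beside 6.69%, 7.63% and 7.02%. These counts are small and the higher ones are near the background, so what follows describes single genes. TTLL3, which adds glycine, had 289 reads in the Bulk library against 942, 1193 and 911 in the others, with ratios of 1.59 (1.41 to 1.79), 2.03 (1.85 to 2.23) and 1.65 (1.46 to 1.85). TTLL1, the catalytic part of a polyglutamylase, had 49, 147, 124 and 133 reads and ratios of 1.44 (1.00 to 1.98), 1.30 (0.84 to 1.84) and 1.40 (0.95 to 1.94). TTLL12, another protein of that family, was lower, at 2726, 1292, 1264 and 1240 reads with ratios of -1.18 (-1.28 to -1.09), -1.12 (-1.22 to -1.02) and -1.14 (-1.24 to -1.04). The VASH enzymes remove the terminal tyrosine of alpha tubulin. VASH2 had 62, 17, 20 and 23 reads and ratios of -1.85 (-2.84 to -1.18), -1.55 (-2.45 to -0.90) and -1.36 (-2.19 to -0.72). VASH1, named after its values were seen, had 99, 208, 215 and 171 reads and ratios of 0.95 (0.61 to 1.33), 1.09 (0.76 to 1.47) and 0.77 (0.42 to 1.16), the opposite direction. TTL, which restores the tyrosine and was likewise named afterwards, was near Bulk, at -0.23 (-0.32 to -0.14), -0.24 (-0.33 to -0.14) and -0.29 (-0.38 to -0.20).

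Microtubule nucleation starts from gamma-tubulin rings. Of 11 genes of that complex, 3 were lower by 2-fold in each library, beside 6.69%, 7.63% and 7.02% of all genes, and 0, 1 and 0 were higher, beside 11.3%, 12.0% and 11.4%. TUBG1, the main gamma-tubulin, had 2535, 1107, 1056 and 981 reads and ratios of -1.30 (-1.40 to -1.20), -1.27 (-1.38 to -1.17) and -1.37 (-1.48 to -1.27). The ring subunits TUBGCP3 and TUBGCP5 were the other two, with ratios of -1.08, -1.19 and -1.18 and of -1.36, -1.44 and -1.15. TUBG2, the second gamma-tubulin gene, named after its values were seen, was higher at 372, 763, 795 and 645 reads and ratios of 0.93 (0.75 to 1.11), 1.08 (0.91 to 1.27) and 0.79 (0.60 to 0.98).

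Genes for proteins that bind along the lattice stayed above the lower 2-fold limit, as most genes did. Of all genes, 6.69%, 7.63% and 7.02% were past it. Of the 9 kept of 10, 3 were higher by 2-fold in each library, beside 11.3%, 12.0% and 11.4% of all genes. MAP7, a partner of kinesin, had 19, 91, 94 and 101 reads and ratios of 2.05 (1.43 to 2.95), 2.18 (1.57 to 3.09) and 2.29 (1.69 to 3.20). The neuronal stabilisers MAP2 and MAPT followed, MAP2 with 121, 424, 379 and 382 reads and ratios of 1.69, 1.62 and 1.64, and MAPT with 309, 944, 1015 and 953 reads and ratios of 1.499, 1.70 and 1.62. Of 10 plus-end proteins, 1, 2 and 2 were higher and 0, 0 and 1 lower, which is near the background of 11.3%, 12.0% and 11.4% higher and 6.69%, 7.63% and 7.02% lower. MAPRE3, an end-binding protein, was higher throughout, at 301, 715, 661 and 612 reads with ratios of 1.14, 1.12 and 1.02.

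Of 10 genes that depolymerise, sequester or sever microtubules, 3 were lower by 2-fold in each library, beside 6.69%, 7.63% and 7.02% of all genes, and 0, 0 and 1 were higher, beside 11.3%, 12.0% and 11.4%. KIF2C, a depolymerising kinesin of the kinetochore, had 2004, 588, 480 and 593 reads and ratios of -1.87, -2.07 and -1.76. KIF18A, a kinesin that limits spindle microtubule length, had 703, 280, 246 and 296 reads and ratios of -1.43, -1.52 and -1.25. STMN1, which sequesters free dimers, had 5005, 2645, 2090 and 2255 reads and ratios of -1.03, -1.27 and -1.15. Some of the related genes also overlap a gene on the opposite strand. METTL15, which overlaps KIF18A, had 306, 400, 423 and 394 reads in Bulk, Claret, eGFP and Violet. TTLL3, TUBG1, TCP1, TBCD and CNOT1 overlap RPUSD3, RETREG3, ACAT2, B3GNTL1 and SETD6 in that order. The part of these overlaps in the counts was not tested.

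**Figure D5:**
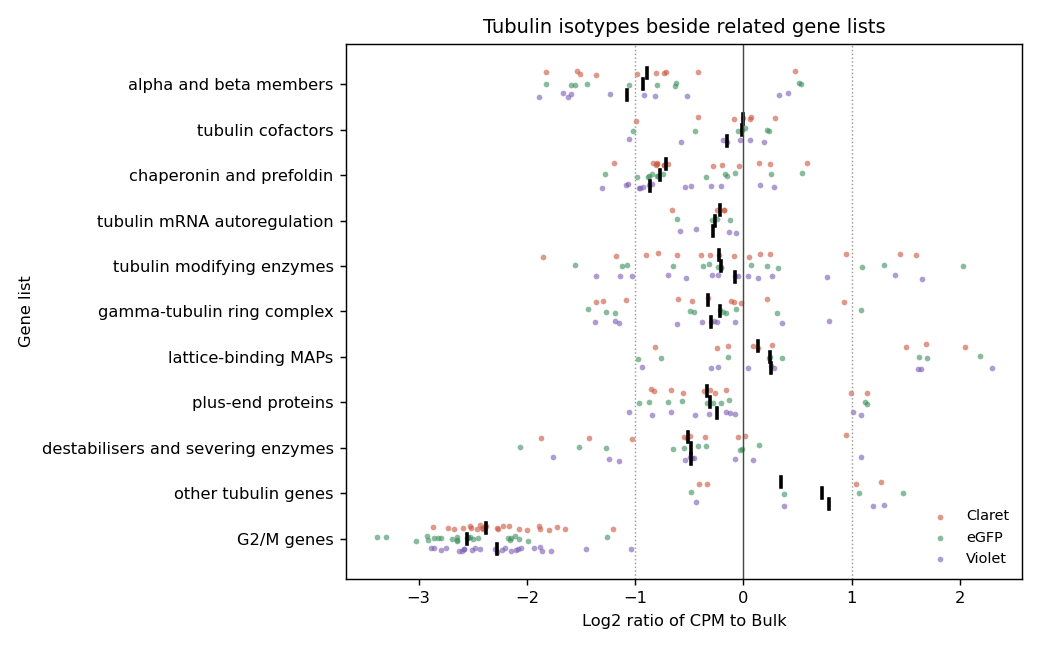
Log2 ratio of CPM to Bulk for the 10 members and for each gene of the related lists that was kept, 1 point per gene and library, with black ticks at the medians and dotted lines at 2-fold. The member points reach lower than those of the chaperonin list and stay above most G2/M points, whose medians are -2.38, -2.55 and -2.28.

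Cell division genes differed along with the tubulins. All 25 genes of a G2/M list were lower by 2-fold in each slow-cycling library, beside 6.69%, 7.63% and 7.02% of all genes, and their summed level was 5350 CPM in Bulk, 1161 for Claret, 941 for eGFP and 1168 for Violet. None of the 25 was at 0 in every library. MKI67, the proliferation marker, had 6778, 995, 689 and 915 reads and ratios of -2.87, -3.31 and -2.89, and CDC20, the activator of the anaphase-promoting complex, had 2707, 437, 374 and 372 reads and ratios of -2.73, -2.86 and -2.86. BIRC5 and NDC80, of the centromere and kinetochore, had ratios of -2.67, -3.39 and -2.79 and of -2.52, -2.69 and -2.74. The sort chose cells by label kept through division, and the part of these genes in the tubulin difference was not tested. The order of the slow-cycling libraries was not the same: the G2/M sum was lowest in eGFP, and the alpha and beta sums were lowest in Violet.

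The genes with the profile most like a member over the 4 libraries were found among 9754 protein-coding genes with a mean of at least 10 CPM, by the Euclidean distance of their log2 CPM after each gene's mean was subtracted. For TUBA1B, which had the widest range and the highest mean FPKM of the alpha genes, they were DEPDC1B (distance 0.082), HAUS8 (0.088) and LIG1 (0.091). For TUBB they were DSN1 (0.021), CDCA4 (0.026) and HSP90AA1 (0.044). HSP90AA1, the stress-inducible cytosolic chaperone, had 29299, 10973, 9803 and 9308 reads and ratios of -1.52, -1.59 and -1.66. With 4 libraries, of which 3 are alike, such a distance mostly reads the step between Bulk and the rest.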

How the data were processed

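RNA of 4 sorted samples was sequenced, 1 library each. The authors deposited whole-number read counts per gene and FPKM values per gene. HISAT2 2.0.5 and featureCounts 1.5.0-p3 are named in the submitters' processing notes, with no role given. The genome build, strand setting and handling of reads with several matches are not given in the sources used here. Start and end of 58724 of the 58735 genes equal GENCODE 29, an annotation of GRCh38, which is the build of all coordinates.

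Genes with a mean of at least 1 CPM were kept. Log2 ratios are of CPM scaled by TMM (edgeR 4.0.16, R 4.3.3) with a prior count of 2. With 1 library per group edgeR leaves no residual degrees of freedom, so no test was run, and genes past 2-fold were counted in each direction. Intervals are 95% exact (Clopper-Pearson). Their calculation was checked on counts simulated with counting error alone, which says nothing about other variation in the real libraries. Isotype shares use the deposited FPKM. Alternatives were library size, DESeq2 1.42.0 size factors, other filters, prior counts, limits, lengths and pools, the treatment field, and a GC correction. The GC correction, the other lengths and the pool without TUBB3 were chosen after seeing the data.

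The members and gene lists were chosen with earlier results of these data known. Named are all members, up to 4 genes per list past 2-fold in the same direction in all 3 comparisons (otherwise its most highly read gene), the nearest profiles, and overlapping or related tubulin rows with at least 50 reads. TBCE has 2 rows, of which the one with more reads was used. No value columns lacked a sample. Some sequences and 1 gene are not reported here.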

Additional observations from a re-analysis of the deposited data

Results flagged for a closer look

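TUBB2B differed from Bulk in opposite directions among the slow-cycling libraries: its log2 ratio of CPM was -0.81 for Claret, 0.51 for eGFP and 0.33 for Violet. The difference between the libraries was not tested. The values rest on 21 reads in Bulk, against 12 for Claret, 31 for eGFP and 27 for Violet, and each of the 3 intervals against Bulk includes 0. Among 100-base stretches of this gene, 46.2% also occur in another gene, and its exons overlap those of PSMG4 over 7.93% of their bases. The part of these overlaps in the result was not tested.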

How the results depend on the processing

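Each difference rests on 1 library per group, and low reads limit TUBB2B and TUBB3, with at most 48 a library. For TUBB3 the limit is not depth alone, since AC092143.1 on the same strand contains 95.8% of its coding bases. No paired analysis was possible because each group holds 1 library. Library-size scaling, DESeq2 size factors, a prior count of 0.5, log2(FPKM + 1) and the GC correction turned none of the 30 member ratios, and the number of members past 2-fold stayed within 1.5 times under them and under both other filters. Library size moved the summed beta level to -1.44, -1.46 and -1.52 for Claret, eGFP and Violet, and the alpha level to -1.32 for Violet. DESeq2 size factors moved beta to -1.51 in eGFP and -1.61 in Violet and alpha to -1.42 in Violet. The GC correction moved beta to -1.503, -1.54 and -1.62 and alpha to -1.31 in eGFP and -1.42 in Violet. A limit of 1.5-fold gave 8 lower members in Claret and 8 in eGFP, beside 17.3% and 18.5% of all genes. The TUBA1A share minus its Bulk share was 19.3, 20.6 and 20.5 percentage points by reads and 10.1, 10.6 and 10.3 by countable length. For TUBB it was -4.52, -3.93 and -3.52 by countable length, and -3.35 in eGFP and -2.60 in Violet by reads. These settings change the scale or the length, and no other cause was tested. With groups from the treatment field, the library titled Bulk stands for Claret and the library titled Violet for Bulk. The ratios in Claret were then 1.88 for TUBA1B, 1.60 for TUBA1C, 1.63 for TUBB and 1.67 for TUBB4B. The sums were 1.37 for alpha and 1.57 for beta. By 2-fold 5 members were higher and 0 lower, beside 7.02% and 11.4% of all genes. In eGFP the ratios were 0.062, 0.23, 0.084 and 0.16 with TUBA4A at 0.25, and the sums 0.13 and 0.10. There 1 member was lower by 2-fold, beside 0.707% of all genes. In Violet the ratios were 0.061, 0.15, 0.069 and 0.075 with TUBA4A at 0.18, and the sums 0.11 and 0.085. There 0 members were lower by 2-fold, beside 0.905% of all genes. The TUBA1A share minus its Bulk share was then -22.7, -1.17 and 0.15 percentage points, and that of TUBB was 1.74, -1.07 and -0.67.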

Other observations

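The table holds 48 further rows named as alpha or beta tubulin genes or pseudogenes. Together they had 318 reads in Bulk, against 192 for Claret, 247 for eGFP and 238 for Violet, which is 0.396%, 0.582%, 0.808% and 0.835% of all alpha and beta tubulin reads. In Bulk 12 of these rows had any reads, and in the others 9, 11 and 10 did. The largest in Bulk was TUBBP1, a pseudogene of TUBB, with 195 reads in Bulk, against 50 (Claret), 61 (eGFP) and 62 (Violet). In the slow-cycling libraries TUBB4A was the largest.

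Of 10 other tubulin genes, 4 were kept by the filter, and 2 of these were higher than Bulk by 2-fold in each slow-cycling library, beside 11.3%, 12.0% and 11.4% of all genes. TUBB4A, a beta isotype of neurons and oligodendrocytes, had 42 reads in Bulk, against 95 (Claret), 121 (eGFP) and 99 (Violet), with log2 ratios of CPM of 1.04 (0.53 to 1.63), 1.47 (0.998 to 2.06) and 1.20 (0.70 to 1.79). TUBE1, the epsilon-tubulin of centrioles, had 238, 621, 506 and 588 reads and ratios of 1.27 (1.06 to 1.499), 1.07 (0.85 to 1.31) and 1.29 (1.08 to 1.52). TUBA3C was at 0 reads in all 4 libraries. FN1, which encodes fibronectin, had 11680, 18300, 22204 and 24708 reads in Bulk, Claret, eGFP and Violet, and its ratio was past 2-fold in Violet alone, at 1.08 (1.05 to 1.11), beside 0.54 in Claret and 0.92 in eGFP.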
